A study of Mus musculus with 24 samples.

Results

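The Zscan4 family of the mouse is a tandem array of near-identical zinc finger genes, and its 6 lettered members, Zscan4a, Zscan4b, Zscan4c, Zscan4d, Zscan4e and Zscan4f, were followed through cleavage in control embryos and in embryos with a knockdown of MERVL, an endogenous retrovirus. The members were taken by symbol, and they make up 6 of the 55291 gene rows in the deposited counts. The counts also carry 3 further copies named as pseudogenes, Zscan4-ps1, Zscan4-ps2 and Zscan4-ps3, and 1035 repeat families. All 6 members passed the filter on low counts in each comparison.

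Zygotes came from B6D2F1 mice of 8 weeks, a hybrid of C57BL/6 and DBA/2, and the strain label of the embryos reads BDF2. MERVL-KD embryos had received a mixture of 3 antisense oligonucleotides (ASOs, synthetic strands that bind a complementary RNA and mark it for cleavage) against MERVL, injected into the male pronucleus at 20 µM, and control embryos had received a scrambled ASO in the same way. Thus every embryo, controls included, was injected and carried an ASO. Total RNA was sequenced from pools of 30 embryos at the 2-cell, 4-cell and 8-cell stages, with 2 libraries of each treatment at each stage, 12 in all, so each value is an average over a pool and fewer expressing cells cannot be told apart from less RNA per cell. The labels date the 2-cell libraries to 1.5 days post coitum and both the 4-cell and the 8-cell libraries to 2.5 days.

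ZSCAN4 proteins pair a SCAN domain, which joins proteins to one another, with zinc fingers that bind DNA. In the mouse the family is transcribed in a short burst when the embryonic genome is first activated, and again in the small share of embryonic stem cells that pass through a state resembling the 2-cell embryo. The proteins are known for lengthening telomeres and for lowering DNA methylation, and the homeodomain protein DUX activates both Zscan4 and the long terminal repeats of MERVL.

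In GRCm38 the 9 copies lay on chromosome 7 between 10794242 and 11614112, a stretch of 819.9 kilobases. Zscan4a (10794242 to 10799057), Zscan4b (10900740 to 10905050), Zscan4d (11161374 to 11166159), Zscan4e (11306378 to 11310682) and Zscan4-ps1 lay on the minus strand. Zscan4c (11005745 to 11010547), Zscan4f (11397915 to 11402318), Zscan4-ps2 and Zscan4-ps3 lay on the plus strand. Each copy has 4 annotated exons, except Zscan4f with 5. The annotations differ on which copies code for protein: GENCODE M21 lists Zscan4a as an unprocessed pseudogene and the other 8 copies as protein coding, whereas RefSeq lists Zscan4a, Zscan4e and the 3 ps copies as pseudogenes.

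The copies are so alike that the uniqueness of an alignment decides which read is counted. Over their aligned exons the 15 pairs of members were from 96.26% to 99.67% identical, and the closest pair, Zscan4b and Zscan4e, differed at 6 of 1793 aligned bases. The following 80 bases of the last exon (GRCm38) are shown because they give the likeness and the differences on which the counting of each copy rests. They were chosen as the stretch without gaps in its coding part where the members together differed most from Zscan4c. They are thus not typical of the exons. Capitals mark the letters that differ from Zscan4c.
Zscan4a: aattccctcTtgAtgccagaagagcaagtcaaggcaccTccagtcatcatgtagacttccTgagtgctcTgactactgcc
Zscan4b: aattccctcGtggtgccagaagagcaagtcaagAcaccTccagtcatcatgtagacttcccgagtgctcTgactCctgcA
Zscan4c: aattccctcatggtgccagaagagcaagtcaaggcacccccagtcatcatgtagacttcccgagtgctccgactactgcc
Zscan4d: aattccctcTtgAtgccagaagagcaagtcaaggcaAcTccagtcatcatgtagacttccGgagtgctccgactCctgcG
Zscan4e: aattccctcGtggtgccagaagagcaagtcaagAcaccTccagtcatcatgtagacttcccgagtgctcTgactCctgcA
Zscan4f: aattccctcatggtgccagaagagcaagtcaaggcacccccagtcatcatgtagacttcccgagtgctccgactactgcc

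This stretch is coding in GENCODE M21 for all members but Zscan4a. In it Zscan4c and Zscan4f had the same letters, as did Zscan4b and Zscan4e. It is shorter than a read of 150 bases, so only bases beside it can tell the copies of such a pair apart. The stretch of Zscan4c lies at chr7:11009161-11009240 on the plus strand, and that of Zscan4d, with 7 letters in capitals, at chr7:11162677-11162756 on the minus strand. Of all 150-base windows of the spliced exons, the length of 1 read, 87.0% occurred once in the genome for Zscan4d and 74.9% for Zscan4a. The share was 39.0% for Zscan4c, 32.5% for Zscan4b, 23.6% for Zscan4e and 19.8% for Zscan4f. Thus most single reads of Zscan4d and Zscan4a would have 1 place, whereas most of those of Zscan4f would not. Fragments were read from both ends, and a mate can place a read that has several places by itself. The share of fragments that could be placed was not computed, and it can be higher than these shares.

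RefSeq promoters of the GRCm38.p6 build were at hand for 4 of the 6 members, and not for Zscan4a and Zscan4e. The 180 bases that all 4 share in an alignment are shown because all members fell after the 2-cell stage, with capitals again marking the letters that differ from Zscan4c.
Zscan4b: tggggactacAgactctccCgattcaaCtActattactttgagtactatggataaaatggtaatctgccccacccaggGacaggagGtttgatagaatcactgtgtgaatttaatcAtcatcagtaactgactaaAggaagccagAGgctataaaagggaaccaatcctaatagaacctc
Zscan4c: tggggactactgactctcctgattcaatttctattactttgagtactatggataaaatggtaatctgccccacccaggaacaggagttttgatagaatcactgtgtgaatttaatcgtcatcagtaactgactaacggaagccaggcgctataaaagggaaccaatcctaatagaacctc
Zscan4d: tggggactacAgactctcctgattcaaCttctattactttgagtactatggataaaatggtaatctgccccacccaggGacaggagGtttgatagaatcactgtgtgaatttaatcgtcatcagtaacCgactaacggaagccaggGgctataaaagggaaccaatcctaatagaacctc
Zscan4f: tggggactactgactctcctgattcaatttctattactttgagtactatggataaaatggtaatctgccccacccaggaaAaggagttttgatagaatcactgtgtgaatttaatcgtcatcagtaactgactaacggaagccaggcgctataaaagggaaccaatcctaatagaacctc

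The stretch of Zscan4c is chr7:11005542-11005721 on the plus strand, and those of Zscan4b, Zscan4d and Zscan4f differed from it by 10, 6 and 1 letters. Within the 250 bases before the start, the letters TATAAAAG, a TATA box with its flank, were found in 4 of 4 members and in 1.51% of all 32851 RefSeq promoters. A pair of facing TGAT sites of the kind that DUX binds, searched as TGAT followed after any 2 bases by AATCA, stood in 4 of 4 members, each time as TGATAGAATCA, and in 0.177% of all promoters. A second TGAT site, TGATTCAA, stood in Zscan4c, Zscan4d and Zscan4f and in 0.539% of promoters, and Zscan4b carried a different letter there. The ZSCAN4 motif TGCACAC stood in 0 of 4 members and in 3.671% of promoters. Both strands were searched, and the motifs found in the 4 members did not overlap. These are matches of letters and not measured sites. In pairs the 4 promoters were from 94.7% to 99.6% identical, so a string that stands in 1 of them tends to stand in all. The counts over the 4 members are thus not separate matches to set against the share of all promoters. Whether the strings were set before these sequences were read is not recorded.

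None of the copies held a close match to the oligonucleotides. Across the bodies of the 9 copies, each of the 3 MERVL ASOs and the scrambled ASO, 20 bases long, had at least 6 mismatches at its nearest site, and 0 sites had 4 or fewer.

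The libraries held from 28167085 to 41482526 counts, and most low counts were even, which is what counting both mates of a pair gives, so counts overstate independent fragments. MERVL-int, the internal part of the retrovirus that the ASOs target, took 6.33% and 6.57% of the counts in control 2-cell libraries against 0.157% and 0.143% in MERVL-KD libraries. It was lower in MERVL-KD embryos by 5.72 ± 0.08 on the log2 scale (SE, edgeR quasi-likelihood test, adjusted p = 1.28e-16), and it was also called lower at the 4-cell and 8-cell stages. MT2_Mm, the long terminal repeat of MERVL, was called lower at all 3 stages. In what follows a level is in counts per 1000000 counts (CPM) after TMM scaling, which takes a trimmed mean of the log ratios between libraries, and a member is called when its edgeR p, adjusted over all tested rows, is under 0.05 and its change at least 2-fold.

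Zscan4 transcripts were abundant in 2-cell embryos and nearly gone by the 4-cell stage in both treatments. Summed over the 6 members, control 2-cell libraries held 8780 and 8924 counts, or 280 and 245 CPM. Control 4-cell libraries held 184 and 88 counts, or 5.22 and 3.05 CPM, and control 8-cell libraries 86 and 76 counts, or 3.12 and 2.54 CPM. The mean of the summed level thus fell 63.5-fold from the 2-cell to the 4-cell stage in controls, by 86.0-fold without control 4-cell replicate 1 and by 50.3-fold without replicate 2.

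In MERVL-KD embryos the same sum was 140 and 159 CPM at the 2-cell stage, 9.82 and 2.95 CPM at the 4-cell stage and 2.88 and 3.43 CPM at the 8-cell stage. The mean fell 23.5-fold from the 2-cell to the 4-cell stage, by 50.8-fold without MERVL-KD 4-cell replicate 1 and by 15.2-fold without replicate 2. At the 2-cell stage both MERVL-KD libraries lay below both control libraries, and at the 4-cell and 8-cell stages the treatments overlapped.

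**Figure D1:**
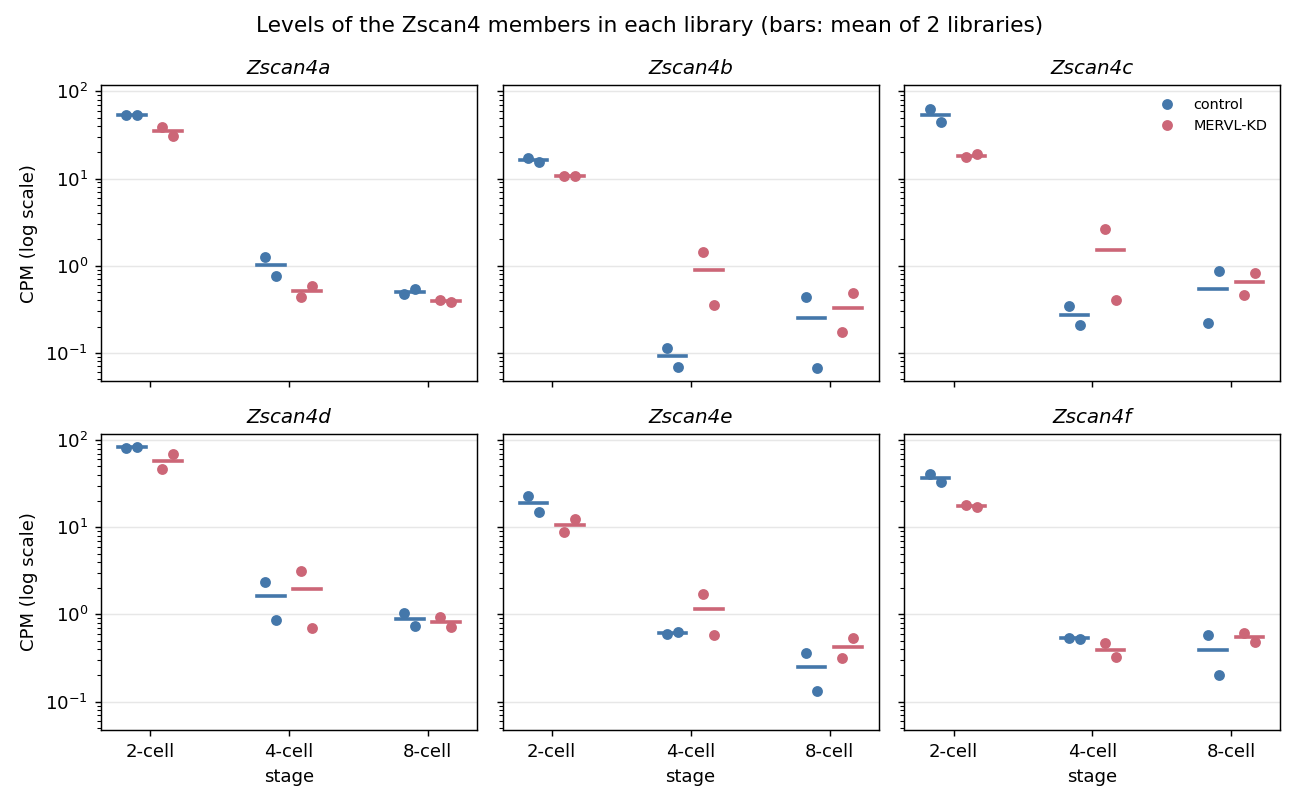
Level of each Zscan4 member in CPM (log axis) against stage, with 1 point per library, control in blue and MERVL-KD in red, and a bar at the mean of 2 libraries. Every member sits between 8.91 and 83.0 CPM at the 2-cell stage and at or below 3.18 CPM later, and at the 2-cell stage both MERVL-KD points lie below both control points in each panel.

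The order of the members at the 2-cell stage depends on the length by which their counts are divided. Per kilobase of annotated exons, control 2-cell embryos held 36.4 ± 0.224 CPM per kilobase of Zscan4d (SD, n = 2, as for the values that follow), 23.8 ± 0.0646 of Zscan4a and 23.5 ± 5.73 of Zscan4c. Zscan4f stood at 18.9 ± 2.64, Zscan4e at 10.5 ± 3.04 and Zscan4b at 9.09 ± 0.676. Zscan4a and Zscan4c did not differ beyond their spread, nor did Zscan4c and Zscan4f, nor Zscan4e and Zscan4b.

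Dividing instead by the bases covered by 150-base windows that occur once in the genome put Zscan4f first, at 56.2 ± 7.86 CPM per kilobase, with Zscan4d at 36.4 ± 0.224, Zscan4c at 34.1 ± 8.30, Zscan4a at 26.4 ± 0.0717, Zscan4e at 22.6 ± 6.52 and Zscan4b at 15.0 ± 1.12. With 50-base windows Zscan4f was again first, at 127 ± 17.8, and Zscan4a last, at 39.9 ± 0.108. Thus Zscan4f ranked below Zscan4d, Zscan4a and Zscan4c by annotated length and first by either length that counts unique sequence. The lengths from windows take each read without its mate, so they can understate the sequence that could be counted. The true order of the members is not settled by them. The lengths are the same in every library, so comparisons of 1 member between groups do not use them.

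**Figure D2:**
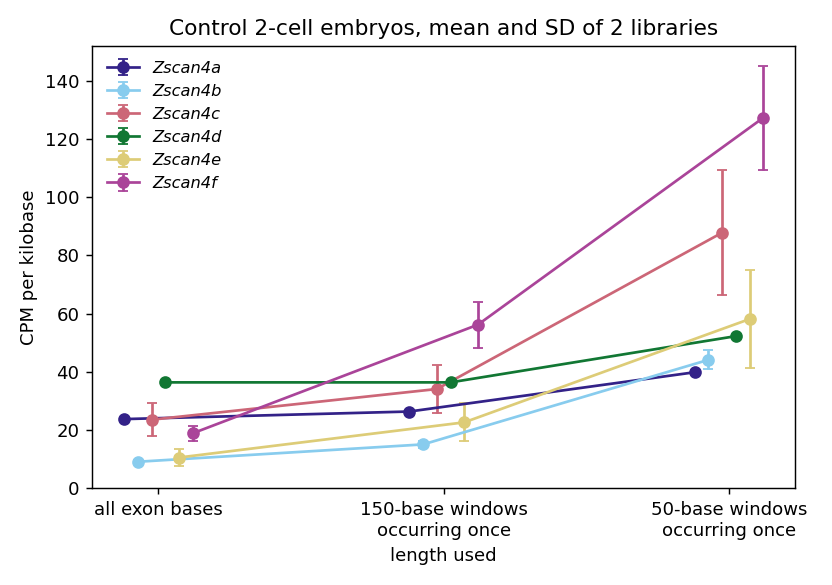
Level of each member in control 2-cell embryos, in CPM per kilobase, with the length taken as all exon bases or as the bases covered by windows of 150 or 50 bases that occur once in the genome (mean and SD of 2 libraries). Zscan4f moves from 18.9 to 56.2 and 127, while Zscan4d moves from 36.4 to 36.4 and 52.3.

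At the 2-cell stage, where the question is how the burst of Zscan4 transcription fares when MERVL RNA is depleted, all 6 members were lower in MERVL-KD embryos than in controls and Zscan4c was the lowest relative to control. Zscan4c held 62.8 and 44.4 CPM in controls and 17.4 and 19.0 CPM in MERVL-KD libraries. The groups lay well apart, and the change was a fall by 1.47 ± 0.16 on the log2 scale (SE, edgeR adjusted p = 1.93e-05). With all 12 libraries in one fit the estimate was -1.55 and the call was lost (edgeR adjusted p = 0.180). That fit still called 1 of 6 members, which was not Zscan4c.

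Zscan4f held 40.6 and 33.3 CPM in controls and 18.2 and 17.1 CPM in MERVL-KD libraries. Its log2 change was -0.98 ± 0.15 (SE, edgeR adjusted p = 0.000282), just short of the 2-fold threshold. Zscan4c and Zscan4f were the only members on the plus strand and had the largest changes of the 6.

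Zscan4e held 22.7 and 15.0 CPM in controls against 8.91 and 12.3 CPM in MERVL-KD libraries, a log2 change of -0.75 ± 0.22 (SE, edgeR adjusted p = 0.0315). Zscan4a, the member that both annotations list as a pseudogene, held 54.0 and 54.2 CPM against 38.6 and 31.1 CPM, a log2 change of -0.55 ± 0.13 (SE, edgeR adjusted p = 0.00779). Zscan4b held 17.2 and 15.5 CPM against 10.6 and 10.8 CPM, a log2 change of -0.53 ± 0.17 (SE, edgeR adjusted p = 0.0497). For each of these members the libraries of the treatments did not overlap, and the changes were under 2-fold.

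Zscan4d, the most abundant member by counts, held 82.3 and 83.0 CPM in controls against 46.3 and 69.0 CPM in MERVL-KD libraries. The MERVL-KD replicates differed widely, and the log2 change of -0.44 ± 0.15 did not pass the threshold (SE, edgeR adjusted p = 0.0644).

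Over the family, 1 of 6 members was called lower, where 2.22% of all 21347 tested rows were, and 5 of 6 had an adjusted p under 0.05 without a fold threshold, where 7.23% of rows did and were lower. The 5 became 2 with library size alone as the scaling, which raised the median of all rows by 0.29 on the log2 scale, and 2 with all 12 libraries in one fit. The median log2 change of the members was -0.65, beside 0.02 over all tested rows. Both MERVL-KD libraries lay below both controls for 6 of 6 members, as for 33.3% of all tested rows. The count of called members was 3 without control replicate 2, 2 without MERVL-KD replicate 1 and 2 without MERVL-KD replicate 2, with Zscan4c among them each time.

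The ps copies did not move as a block. Zscan4-ps3 held 35.5 and 22.5 CPM in controls against 15.1 and 12.6 CPM, a log2 change of -0.98 ± 0.20 (SE, edgeR adjusted p = 0.00434), and Zscan4-ps2 held 15.5 and 14.0 CPM against 7.31 and 8.31 CPM, a log2 change of -0.83 ± 0.18 (adjusted p = 0.00597). Zscan4-ps1 held 10.0 and 12.8 CPM in controls against 16.6 and 12.1 CPM, a log2 change of 0.42 ± 0.20 (SE, edgeR adjusted p = 0.190). It was the copy of the 9 with the highest estimate. By strand, the 4 plus-strand copies ranged from -1.47 to -0.83 on the log2 scale and the 5 minus-strand copies from -0.75 to 0.42. These ranges did not overlap, but the nearest copies, Zscan4-ps2 and Zscan4e (-0.75 ± 0.22, SE), differed by less than either SE. Leaving out a library in turn, Zscan4-ps3 ranged from -1.30 to -0.62 and Zscan4e from -1.04 to -0.42, so copies of the 2 strands overlapped. This split was seen in the values and was not tested. Pairs of copies on the same strand were from 96.63% to 99.67% identical in their exons (median 97.2%) and pairs on opposite strands from 96.04% to 98.02% (median 97.1%). The median was 98.3% for pairs both on the plus strand and 96.97% for pairs both on the minus strand.

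**Figure D3:**
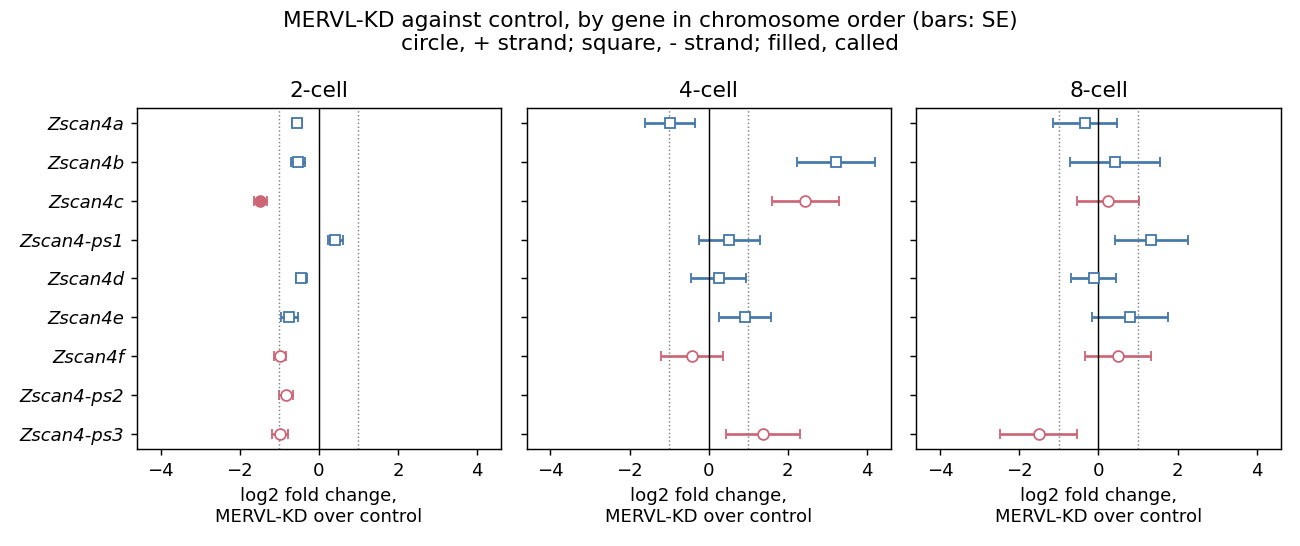
Log2 fold change of MERVL-KD over control at each stage for the 9 Zscan4 copies in chromosome order (points with SE; circles, plus strand; squares, minus strand; filled, called; dotted lines, 2-fold). At the 2-cell stage Zscan4c alone is filled, at -1.47, and Zscan4-ps1 stands to the right of 0, at 0.42. Zscan4-ps2 has no point at the 4-cell and 8-cell stages because it did not pass the filter there.

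Because scaling cancels in a share, the make-up of the family was also compared within libraries. Zscan4c contributed 22.5% and 18.1% of the 6 members' counts in control 2-cell libraries and 12.4% and 11.9% in MERVL-KD libraries. The difference in the mean share, MERVL-KD minus control, was -8.07 percentage points, and the groups did not overlap. The exact permutation test gave p = 0.333 (two-sided), the smallest that 2 libraries against 2 can give. The groups were also apart, with the same p, for Zscan4f, at 14.0% ± 0.673 in controls and 11.9% ± 1.63 in MERVL-KD libraries (SD, n = 2), and for Zscan4b, at 6.16% and 6.32% against 7.58% and 6.79%. Thus 2 of the separated shares were lower in MERVL-KD embryos and 1 was higher. The shares of Zscan4a, Zscan4d and Zscan4e overlapped, with Zscan4d at 29.4% and 33.8% in controls and 33.0% and 43.3% in MERVL-KD libraries.

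**Figure D4:**
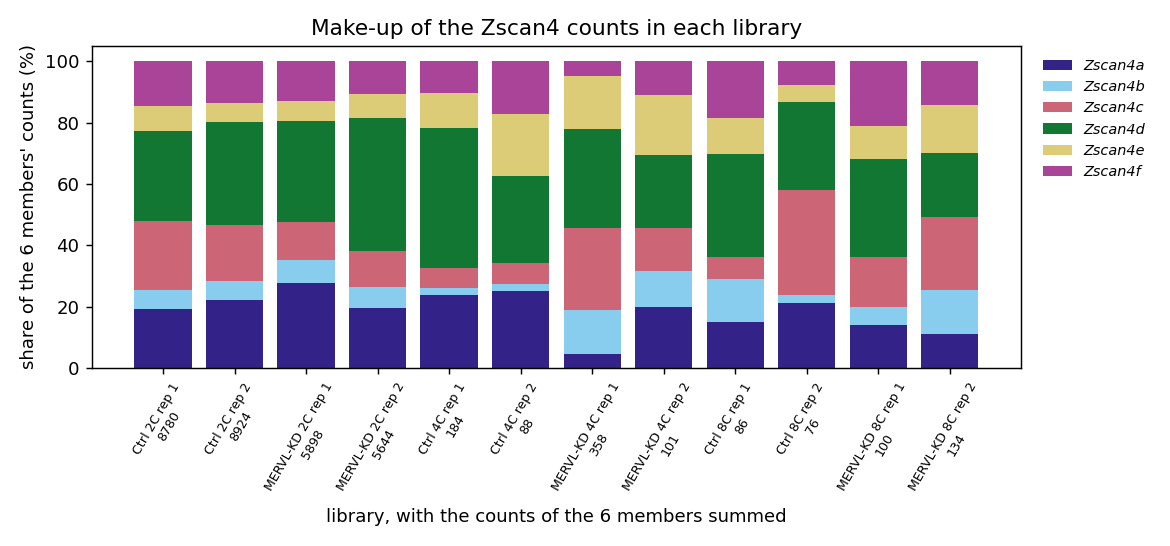
Share of each member in the counts of the 6 members, in percent, for the 12 libraries, with the summed counts under each bar. The share of Zscan4c is 22.5% and 18.1% in control 2-cell libraries and 12.4% and 11.9% in MERVL-KD 2-cell libraries, and from the 4-cell stage on the bars rest on 76 to 358 counts.

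Other transcripts also differed between the 2-cell groups. The summed level of the 9 oocyte and maternal markers was 1355 and 1280 CPM in control 2-cell libraries and 839 and 934 CPM in MERVL-KD libraries. Of the 9 markers, 8 were lower and 0 were called by edgeR or DESeq2. An edgeR adjusted p under 0.05 was found for 4, all of them lower, where 7.23% of all tested rows were lower at that rule. An unadjusted edgeR p under 0.05 was found for 7. Bmp15 had the highest level of the 9, at 614 and 521 CPM in controls against 273 and 341 CPM in MERVL-KD libraries. The sum of the 9 markers was between 130 and 172 CPM in all 8 later libraries. The summed level of the 9 cumulus and granulosa markers was 5.89 and 5.42 CPM in control 2-cell libraries and 7.50 and 7.38 CPM in MERVL-KD libraries, with Ptx3 at 3 counts or fewer in every library. Of these, 4 were tested, 2 of them higher and 2 lower. Star alone was called, higher by edgeR and by DESeq2, at 1.88 and 2.15 CPM in controls against 4.35 and 4.01 CPM in MERVL-KD libraries. Has2 went the other way, at 1.02 and 0.660 CPM in controls against 0.427 and 0.424 CPM, so the list did not move together. The summed level of the 4 sperm markers was at most 1.40 CPM in every library. The 10 markers of later cleavage summed to 228 and 254 CPM in controls and to 255 and 239 CPM in MERVL-KD libraries. The part of these in the Zscan4 values was not tested.

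At the 4-cell stage no member was called between treatments, and the higher values in MERVL-KD embryos rested largely on 1 library. Zscan4b held 4 and 2 counts in controls, or 0.113 and 0.0694 CPM, and 52 and 12 counts in MERVL-KD libraries, or 1.43 and 0.350 CPM. The log2 change was 3.22 ± 0.98 (SE, edgeR adjusted p = 0.0593). Zscan4c held 0.340 and 0.208 CPM in controls and 2.61 and 0.409 CPM in MERVL-KD libraries, a log2 change of 2.44 ± 0.85 (SE, edgeR adjusted p = 0.0968). For both members the first MERVL-KD library was far above the other 3, and the second was still above both controls.

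In that first library Zscan4d reached 3.18 CPM against 0.701 CPM in its replicate and 2.38 and 0.868 CPM in controls, and Zscan4e reached 1.70 CPM against 0.584 CPM in its replicate and 0.595 and 0.625 CPM in controls. Zscan4a, at 0.439 and 0.584 CPM against 1.25 and 0.764 CPM in controls, and Zscan4f, at 0.466 and 0.321 CPM against 0.539 and 0.521 CPM, did not share this excess and were lower in both MERVL-KD libraries. Thus 4 of 6 members were at least 2-fold higher in MERVL-KD replicate 1 than in replicate 2, where 1.93% of 23673 genes were. Among 32 other genes of the 2-cell stage, 4 were at least 2-fold higher in replicate 1 and 0 in replicate 2, and their median difference was 0.10 on the log2 scale. Their part in the Zscan4 values was not tested.

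The count of called members at the 4-cell stage was 0 of 6, where 4.46% of all tested rows were called. Without adjustment 2 members had an edgeR p under 0.05, and the share of all rows under that rule was not computed. DESeq2 also called 0, and it gave no adjusted p for Zscan4b. The count was 2 without MERVL-KD replicate 2, 1 without control replicate 1, and 0 without either of the other libraries. Without MERVL-KD replicate 1 the log2 changes of Zscan4b and Zscan4c were 1.88 and 0.56. Both MERVL-KD libraries lay above both controls for 2 members, as for 27.3% of all rows, and below for 2, as for 27.0%. The 2 above were Zscan4b and Zscan4c. Zscan4b passed the filter on low counts at this stage only through its MERVL-KD libraries. Zscan4c, with 12 and 6 counts in controls, needed a MERVL-KD library to pass. Their separation upwards was thus favoured by the filter.

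At the 8-cell stage the members were at the edge of detection and the treatments could not be told apart. A level of 3 counts was from 0.0769 to 0.109 CPM in the 8-cell libraries, and the members held from 2 to 32 counts. Zscan4d held 1.05 and 0.736 CPM in controls against 0.923 and 0.718 CPM in MERVL-KD libraries, a log2 change of -0.12 ± 0.57 (SE, edgeR adjusted p = 0.948). Zscan4c held 0.217 and 0.870 CPM against 0.461 and 0.820 CPM, a log2 change of 0.24 ± 0.78 (SE, edgeR adjusted p = 0.917). The 6 log2 changes ranged from -0.34 to 0.79. The count of called members was 0 of 6 by edgeR and by DESeq2, with 0 at an unadjusted edgeR p under 0.05, where 1.7% of all tested rows were called. Both MERVL-KD libraries lay below both controls for 1 member, Zscan4a, as for 25.3% of all rows, and the other 5 overlapped. With SEs from 0.57 to 1.13 on the log2 scale, a 2-fold change was not detectable at this depth.

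Every member fell from the 2-cell to the 4-cell stage in both treatments. In controls 6 of 6 members were called lower, where 23.7% of all 24850 tested rows were, with log2 changes from -7.56 for Zscan4c to -4.95 for Zscan4e. In MERVL-KD embryos 6 of 6 were called lower, where 22.4% of rows were, from -6.09 for Zscan4a to -3.20 for Zscan4e. The edgeR adjusted p of Zscan4c was 0.000116 in controls and 0.00243 in MERVL-KD embryos, and those of the other members were smaller, except that of Zscan4d in controls (0.000191). With only genes of at least 10 counts in every library, 2 members remained in the fit, Zscan4a and Zscan4d, and both were called lower in each treatment.

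From the 4-cell to the 8-cell stage 0 of 6 members were called in controls, where 1.55% of rows were, and 0 of 6 in MERVL-KD embryos, where 1.59% were. DESeq2 called 0 and 1. An unadjusted edgeR p under 0.05 was found for 2 members in controls and 2 in MERVL-KD embryos, with no share of all rows computed for that rule. The log2 changes ranged from -1.30 to 1.36 in controls and from -1.41 to 0.46 in MERVL-KD embryos.

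Whether the effect of MERVL-KD itself differed between stages was tested as an interaction. Between the 2-cell and the 4-cell stages the effect on Zscan4b moved upwards by 3.82 ± 0.93 on the log2 scale (SE, edgeR adjusted p = 0.0314), and 1 of 6 members was called, where 2.27% of rows were. Zscan4c moved by 3.98 ± 1.12 and did not pass the threshold (SE, edgeR adjusted p = 0.109), nor did Zscan4e at 1.74 ± 0.59 (adjusted p = 0.113). Zscan4a moved by -0.36 ± 0.36 (SE, edgeR adjusted p = 0.679). The call of Zscan4b was lost without any single one of the 8 libraries in the contrast but MERVL-KD 4-cell replicate 2, without which 3 members were called. Of the ps copies Zscan4-ps3 was called, at 2.42 ± 0.60 (SE, edgeR adjusted p = 0.0246). Between the 4-cell and the 8-cell stages 0 of 6 members were called by edgeR and by DESeq2, where edgeR called 0.406% of rows. Without adjustment 1 member had an edgeR p under 0.05, again with no share of all rows computed.

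Of the genes that flank the array, 1 of 6 was detected well enough to be tested. Of the 3 protein-coding genes before it and the 3 after it, the vomeronasal receptor genes Vmn1r70, Vmn1r71, Vmn1r72, Vmn1r73 and Vmn1r74 held at most 16 counts in any library and were not tested at the 2-cell stage. Nlrp4b, a member of the NLRP family with oocyte expression, held 35.3 CPM on average in control 2-cell embryos and its log2 change in MERVL-KD 2-cell embryos was -0.32 (edgeR adjusted p = 0.137).

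Over the 12 libraries the members' levels, as log2 of CPM plus 0.5, followed one another with Pearson's r from 0.95 to 0.99 for the 15 pairs, a likeness set mostly by the drop after the 2-cell stage. Of 24693 other genes, the 8 whose levels were most like the sum of the members were Oas1d, Stard13, Gm13078, Gm4766, Olfr1300-ps1, Plxna4, Septin14 and Gm12789, with r from 0.995 to 0.997. At the 2-cell stage the log2 changes of these 8 in MERVL-KD embryos ranged from -0.75 to -0.09, and 2 had an edgeR adjusted p under 0.05, Gm4766 (-0.75, adjusted p = 0.0011) and Gm13078 (-0.46, adjusted p = 0.00254). None of the 8 reached 2-fold at the 2-cell stage. The ranking used the 2-cell libraries as well, so it favoured genes that were lower in those of MERVL-KD embryos. The 2-cell changes of these 8 are therefore no separate support for those of the members.

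Of the 23 listed regulators of Zscan4 and of the 2-cell state, 22 were in the files and tested, and 0 were called at any stage by edgeR or DESeq2, with 11, 9 and 7 at an unadjusted edgeR p under 0.05 at the 2-cell, 4-cell and 8-cell stages. Without MERVL-KD replicate 2 the 4-cell count was 1. At the 2-cell stage 16 of the 22 were lower and 6 higher, and the median log2 change was -0.24. An edgeR adjusted p under 0.05 was found for 9, of which 8 were lower and 1 higher, where 7.23% of all tested rows were lower at that rule. Duxf3, which encodes DUX, held 4.40 and 2.34 CPM in control 2-cell embryos against 1.50 and 2.68 CPM, a log2 change of -0.61 ± 0.38 (SE, edgeR adjusted p = 0.339), and its groups overlapped. Dppa2 and Dppa4, chromatin factors upstream of Dux, changed by -0.45 and -0.38 (edgeR adjusted p = 0.00535 and 0.0385). Obox5, a homeobox gene of oocyte and early embryo, changed by -0.68 (edgeR adjusted p = 3.22e-05) and Nr5a2, a nuclear receptor, by -0.65 (adjusted p = 0.000247). The regulators named here, those below included, were chosen after their values were seen. Also on the list, Chaf1a held 114 and 121 CPM in control 2-cell embryos against 79.8 and 84.4 CPM in MERVL-KD embryos. Chaf1b held 12.8 and 12.2 CPM against 16.4 and 12.2 CPM, and its groups overlapped. Setdb1 held 87.2 and 93.7 CPM against 69.4 and 63.2 CPM, and Smchd1 was higher, at 130 and 132 CPM against 148 and 149 CPM.

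Of the 21 listed genes of telomere maintenance, meiotic recombination, DNA methylation and the known partners of ZSCAN4, 20 were tested at the 2-cell stage and 1 was called lower, Pot1a, a protein of the telomere end. The share called lower over all tested rows was 2.22%. Pot1a held 20.3 and 19.0 CPM in control 2-cell embryos and 2.71 and 6.27 CPM in MERVL-KD embryos. The change was a fall by 2.06 ± 0.29 on the log2 scale at the 2-cell stage (SE, edgeR adjusted p = 0.000464) and by 1.26 ± 0.17 at the 4-cell stage (adjusted p = 0.000774). At the 8-cell stage 0 were called by edgeR or DESeq2, with 8 at an unadjusted edgeR p under 0.05. The 2-cell count of 1 was 2 with library size alone, the 4-cell count of 1 was 2 without either control library and 2 without MERVL-KD replicate 1, and the 8-cell count was 1 with library size alone and 1 without MERVL-KD replicate 1. The share of all tested rows that were lower at an edgeR adjusted p under 0.05 at the 2-cell stage was 7.23%. Of the 20, 4 had such a p, 3 lower and 1 higher. Beside Pot1a these were Hdac1, a histone deacetylase, at -0.55 (adjusted p = 0.000633), Terf1, a protein of the telomere repeat, at -0.55 (adjusted p = 0.00842), and Tet1, which oxidises methylated cytosine, at 0.69 (adjusted p = 6.5e-05). Rif1 and Tet2, which encode partners of ZSCAN4, had log2 changes of -0.05 and -0.16 (edgeR adjusted p = 0.71 and 0.595). Rif1, Dnmt1, Kdm1a and Trim28 stand on both of these lists.

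Other genes of the 2-cell burst were mostly lower in MERVL-KD embryos at the 2-cell stage. Of 35 listed, 33 were tested, 27 were lower, 17 had an edgeR adjusted p under 0.05, all of them lower, and 4 were called lower, Tdpoz2, Usp17le, Gm20767 and AF067061. Over all tested rows 7.23% were lower at that adjusted p and 2.22% were called lower. The share of all rows that were lower at any p was not computed. The median log2 change of the 33 was -0.40, against -0.65 for the Zscan4 members and 0.02 for all rows. AF067061, whose log2 change was -1.34 ± 0.22 (SE, edgeR adjusted p = 0.0014), held 52.6 and 34.6 CPM in controls and 13.1 and 19.6 CPM in MERVL-KD libraries. The count of 4 was 1 with library size alone, 2 with all 12 libraries in one fit, 2 without control replicate 1 and 2 without MERVL-KD replicate 1. At the 4-cell stage Zfp750 was called higher and Sp110 and Zfp352 lower among 32 tested, where 4.46% of all rows were called. At the 8-cell stage Spz1 was called higher among 31, where 1.7% of all rows were called. The 4-cell count of 3 was 6 without control replicate 1, 0 without control replicate 2, 1 without MERVL-KD replicate 1 and 1 with library size alone, and the 8-cell count of 1 was 4 without MERVL-KD replicate 2, 2 without control replicate 1 and 2 without MERVL-KD replicate 1. It was also 2 with the replicate block, by DESeq2, with library size alone, with counts halved, where each library needed 10 counts and with all 12 libraries in one fit, and 3 with at least 1 count in any library.

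Other SCAN domain genes lie outside the array. Of 30 listed, 28 were tested at the 2-cell stage, 14 were higher and 14 lower, and the median log2 change was -0.01. An unadjusted edgeR p under 0.05 was found for 7. By edgeR or DESeq2 0 were called, where edgeR called 2.22% of all tested rows lower. The count was 1 with library size alone and 1 without MERVL-KD replicate 2. At the 4-cell stage Zkscan7 was called lower, by 1.35 ± 0.39 on the log2 scale (SE, edgeR adjusted p = 0.0464), and this call was lost with library size alone, with a replicate block and without MERVL-KD replicate 2. At the 8-cell stage 0 were called by edgeR or DESeq2, with 4 at an unadjusted edgeR p under 0.05.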

How the data were processed

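Total RNA of pools of 30 embryos was made into stranded, random-primed libraries and read from both ends. The authors aligned the reads with STAR 2.5.3a, retained reads with a single alignment, and used featureCounts to count over GENCODE genes and RepeatMasker families, and the deposited values are raw counts without normalization. The coordinates in the files match GENCODE M21 on GRCm38, and sequences were read from that build. Reads that fit several Zscan4 copies are thus absent, and the embryos' hybrid genome differs from the reference. Whether the counting used strand is not given in the sources used here.

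From the counts, edgeR 4.0.16 in R 4.3.3 was run with filterByExpr, TMM and the robust quasi-likelihood test. Treatments were compared in the 4 libraries of a stage, and stages and interactions in one fit of 12. The Benjamini-Hochberg adjustment ran over every tested row, genes and repeat families together. Where members or listed genes are counted at an unadjusted p under 0.05, the share of all rows under that rule was not computed. Such counts cannot be called high or low. SE is the log2 change divided by the square root of F. DESeq2 1.42.0 and other scalings, filters and samples were alternatives, and those applied to the gene lists were added after the data had been seen. The fits were tested on simulated data. Identity was taken from MAFFT 7.526 alignments.

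The members and lists were chosen with earlier results of these data known. Named beside the members were the other Zscan4 rows, 3 coding genes on each side of the array, the 8 genes of highest r with the summed members (at least 10 counts in 2 libraries, not repeats), called genes of 4 lists, and the best known regulators and partners on those lists, which were chosen after their values were seen. The replicates are biological replicates in the study's methods. Precision covers counting error and the spread between 2 libraries. ATAC-seq samples were not analysed here.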

Additional observations from a re-analysis of the deposited data

Results flagged for a closer look

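The difference between the MERVL-KD effects at the 4-cell and the 2-cell stages passed the test for 2 copies. For Zscan4b it was 3.82 on the log2 scale (edgeR adjusted p = 0.0314), with both MERVL-KD libraries below both controls at the 2-cell stage and above them at the 4-cell stage. The 4-cell side of it rests on 4 and 2 counts in controls against 52 and 12 in MERVL-KD embryos, and the adjusted p of Zscan4b ranged from 9.27e-07 to 0.157 over the alternatives. For Zscan4-ps3 it was 2.42 (edgeR adjusted p = 0.0246), with 9 and 4 counts in control 4-cell libraries and 23 and 14 in MERVL-KD libraries, and its adjusted p ranged from 0.000927 to 0.105. In a group of 2 libraries no test for a library far from the others could be made.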

How the results depend on the processing

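At the 2-cell stage 1 member was called, against 5 with no fold threshold and from 1 to 3 with a library left out. At the 4-cell stage the count of 0 was 2 with genes of at least 1 count in any library, 1 with all 12 libraries in one fit and from 0 to 2 with a library left out. At the 8-cell stage it was 0 under all alternatives run. For the fall from the 2-cell to the 4-cell stage the count of 6 was 2 in controls and 2 in MERVL-KD embryos where each library needed 10 counts, since only 2 members were tested, and from 6 to 6 in both with a library left out. From the 4-cell to the 8-cell stage in controls the count of 0 was 1 with library size alone, 1 where each library needed 10 counts and from 0 to 1 with a library left out, without control 4-cell replicate 2 being the case of 1. In MERVL-KD embryos it was 1 by DESeq2, 2 with at least 1 count in any library and from 0 to 3 with a library left out, 3 without 4-cell replicate 2. For the interaction of the 2-cell and 4-cell stages the count of 1 was 3 by DESeq2, 2 with at least 1 count in any library, 0 where each library needed 10 counts, 2 with counts halved and from 0 to 3 with a library left out. For the interaction of the 4-cell and 8-cell stages it was from 0 to 0. Apart from the filters, which change the genes tested, the cause was not tested.

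With the replicate number as a block, 1 member was called at the 2-cell stage, 0 at the later ones, 6 in each fall from the 2-cell to the 4-cell stage and 1 in the first interaction, so the replicate block changed no count of members. The labels tie no replicate number to a shared pool or day, and the deviations of same-numbered libraries correlated at -0.0707 to 0.0399, so the numbers did not pair libraries. The log2 change of Zscan4d at the 8-cell stage was 0.019 with library size alone, that of the first interaction of Zscan4-ps1 was -0.10 with library size alone, and that of the second interaction of Zscan4e was 0.011 with counts halved. Leaving out a library in turn, log2 changes of members that were not called changed sign. At the 4-cell stage they ranged from -1.22 to 1.17 for Zscan4d, from -0.064 to 1.48 for Zscan4e and from -0.89 to 1.21 for Zscan4-ps1. At the 8-cell stage they ranged from -0.51 to 2.26 for Zscan4b, from -0.42 to 1.56 for Zscan4c, from -0.35 to 0.17 for Zscan4d and from -0.077 to 1.44 for Zscan4f. From the 4-cell to the 8-cell stage in controls they ranged from -0.44 to 2.17 for Zscan4b, from -0.37 to 1.64 for Zscan4c, from -1.41 to 0.036 for Zscan4d, from -1.37 to 0.12 for Zscan4f and from -5.50 to 0.45 for Zscan4-ps2. In MERVL-KD embryos they ranged from -1.96 to 0.66 for Zscan4c, from -1.92 to 0.22 for Zscan4d and from -1.22 to 0.85 for Zscan4-ps1. For the first interaction they ranged from -0.69 to 0.057 for Zscan4a, from -0.72 to 1.70 for Zscan4d and from -1.22 to 0.76 for Zscan4-ps1. For the second they ranged from -1.29 to 1.12 for Zscan4d, from -0.63 to 0.87 for Zscan4e and from -2.09 to 4.14 for Zscan4-ps2. A group with 1 library left was assumed to vary like the others.

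From the 4-cell stage on, the members held from 2 to 116 counts a library, and this depth limits the later comparisons.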

Other observations

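Zscan4a, which both annotations list as a pseudogene, held 1696 and 1972 counts in control 2-cell embryos. Per kilobase it ranked 2 of 6 by annotated length, 4 of 6 by 150-base windows that occur once and 6 of 6 by 50-base windows. It was also the member with the smallest difference between the control replicates, 54.0 and 54.2 CPM. At the 4-cell stage it took 4.47% of the members' counts in MERVL-KD replicate 1, against 19.8% in replicate 2 and 23.9% in the lower control. Zscan4c took 26.5% there, against 13.9% in replicate 2 and 6.52% and 6.82% in controls.

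Zscan4-ps1 took 701 and 427 counts in MERVL-KD 2-cell libraries and 315 and 465 in controls, and 87.4% of its 150-base windows occurred once in the genome.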
